A study of Mus musculus with 4 samples.

Results

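The array carried 16194 probes that have no gene name and are identified only by a mouse genomic interval and a strand, and they were selected from the probe names alone. They made up 16194 of the 55681 distinct probes and covered 3543 intervals, or 4610 interval strands, since some intervals were probed on both strands. Each probe is a 60-base DNA strand printed on 1 spot, with no sequence repeated among the 16194, and an interval strand had between 1 and 10 probes with a median of 3. The intervals had a median length of 7304 nt, with a middle range from 786.5 to 21807 nt. The probe descriptions call these designs lincRNA, and most carry only the coordinates and the words forward or reverse, written below as F and R. All coordinates are on mm9. The coordinates of 118 probes are unmapped in the files, 8 lay partly outside their interval, and 719 overlapped another interval probe on the same strand, so members of 1 interval are not independent.

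Long intergenic noncoding RNAs are transcripts made from DNA between protein-coding genes. Many were first drawn as intervals of the genome from chromatin marks or sequencing, before their exons were known, so a probe inside such an interval may lie on an exon, an intron or an untranscribed stretch. Brain expresses a wide range of them, often at low levels, and some, such as Malat1 in nuclear speckles, stay in the nucleus while others, such as Norad, are found mainly in the cytoplasm. CPEB3 is an RNA-binding protein of neurons that belongs to the cytoplasmic polyadenylation element-binding family, is known for controlling the translation of mRNAs at synapses, and binds U-rich RNA.

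Corticohippocampal lysate came from male C57BL/6 mice 8 weeks of age, with no allele or treatment given for any group. Each of 2 arrays read RNA precipitated with CPEB3 IgG, and each of 2 others read RNA precipitated with control IgG. All 4 shared 1 slide, so place on the slide and antibody cannot be told apart. The incubation lasted 3 h, and Cy3 label, the single colour read, was put on RNA amplified from 0.2 ug of each sample. No input RNA was analysed here, so each value is the signal after CPEB3 IgG relative to that after control IgG. Nothing in the labels shows if replicates were separate mice or separate lysates. The p-values rest on the spread between arrays, which may be only technical. Of 29 marker genes of brain cell types, 28 rose above background on every array, and of 4 genes of other tissues, 2 were (Myh6 and Ins2), while Alb and Cyp7a1 were on none.

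A level here is log2 of the processed spot signal minus log2 of the 75th percentile of the array, which was 507 and 353 for the CPEB3 IgG arrays and 443 and 425 for the control IgG arrays. A difference is the mean level with CPEB3 IgG minus the mean level with control IgG, tested with limma across all 40616 probes that were well above background on at least 2 arrays. A probe is called at a Benjamini-Hochberg adjusted p under 0.05. Brightness also depends on each probe's own binding strength, so a level compares arrays for 1 probe, and a brighter probe does not mean more RNA.

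The interval probes were mostly faint. They were well above background in 56.7% and 54.2% of cases with CPEB3 IgG and in 62.5% and 62.2% with control IgG, against 75.5%, 73.7%, 77.9% and 77.6% of the other probes on the same arrays. Of the 16194, 7959 were above background on all 4 arrays, 949 on 3, 1015 on 2, 1439 on 1 and 4832 on none. Among those on exactly 2 arrays, 543 were above background with control IgG only and 84 with CPEB3 IgG only. The 9914 interval probes that passed the filter and had a value on every array were tested. Passing the filter through 1 group alone favours a difference, so counts are also given for the 7959 probes detected on all arrays.

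In this test 576 interval probes were higher and 1506 were lower with CPEB3 IgG, or 5.81% and 15.2% of the 9914. Over all probes tested the shares were 15.8% higher and 18.9% lower. The median difference was -0.29 for interval probes and -0.19 for all probes tested. Among interval probes detected on all 4 arrays, 516 were higher and 1070 lower, or 6.48% and 13.4%, where the shares over all such probes were 17.3% and 18.7%. Their median difference was -0.23, and their median standard error was 0.21. Over all 9914 tested, the called interval probes changed by a median of 2.38-fold upward and 2.19-fold downward. For those detected on all 4 arrays the medians were 2.29-fold and 2.07-fold. The 22103 tested probes with an NM accession, which marks a curated mRNA, were called higher in 22.6% and lower in 20.1% of cases with a median difference of -0.06. The 896 probes with an NR accession, which marks a curated noncoding RNA, were called higher in 9.71% and lower in 14.6% with a median of -0.20.

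The balance of higher against lower calls depended on how the arrays were scaled. With the 75th percentile, 27.7% of the called interval probes were higher. That share was 48.7% with quantile normalization, 53.8% with median scaling, 46.9% with cyclic loess, 36.1% with normexp background correction, 21.7% without scaling and 73.5% with scaling on the spike-in spots. The median difference of interval probes was -0.04 with quantile normalization and 0.36 with spike-in scaling, while that of all other probes moved from -0.15 to 0.02 and 0.51. The smaller share of called probes among the members held under these settings, from 8.40% to 21.0% of the interval probes against 21.3% to 39.2% of all other probes. The share called also went with brightness, and the interval probes were fainter. Among probes detected on all arrays with a mean level below -3.5, 7.95% of interval probes and 10.8% of NM probes were called with the 75th percentile. These shares were 21.0% and 45.3% at levels from -1 to 0, and 50.4% and 57.3% from 2 up. Leaving out the array of CPEB3 IgG replicate 1 gave 170 higher and 249 lower, without CPEB3 IgG replicate 2 there were 227 and 466, and without control IgG replicate 1 there were 366 and 799.

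**Figure D1:**
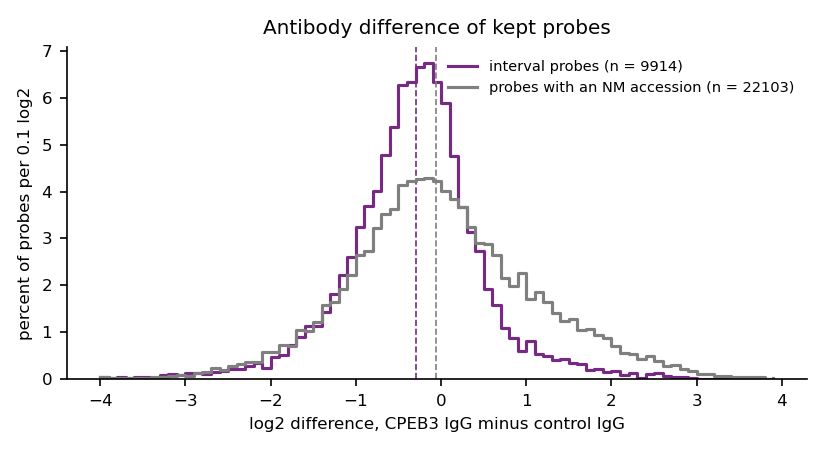
Share of probes (percent per 0.1 log2) by log2 difference, CPEB3 IgG minus control IgG, for the 9914 tested interval probes and the 22103 tested probes with an NM accession, with dashed lines at the medians of -0.29 and -0.06. The interval probes form a narrower distribution, and values past 4 in size are drawn in the end bins.

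The sequences of some of the probes with the largest called increases are shown first, since each is the only handle on what was measured. Capitals mark the letters TTTTA, the core of the cytoplasmic polyadenylation element in DNA letters, on the strand of the probe, which was searched as TTTTA with overlaps allowed. Those of the 8 largest increases that are not printed hold no TTTTA. The first lies at chr4:128731800-128731859 on strand F, the next pair at chr9:81538806-81538865 and chr9:81540789-81540848 on strand R, and the last at chr3:95503032-95503091 on strand R.
A_30_P01020118: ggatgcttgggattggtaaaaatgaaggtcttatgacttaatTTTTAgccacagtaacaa
A_30_P01027016: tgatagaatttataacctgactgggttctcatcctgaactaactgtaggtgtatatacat
A_30_P01026333: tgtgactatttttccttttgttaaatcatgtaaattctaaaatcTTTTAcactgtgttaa
A_30_P01018721: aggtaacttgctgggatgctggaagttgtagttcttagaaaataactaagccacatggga

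A_30_P01020118, in the 7896-nt interval chr4:128727332-128735227, had the largest increase among probes detected on all arrays. Its levels were -0.29 and -0.76 with CPEB3 IgG against -3.57 and -4.14 with control IgG. The groups did not overlap, and the difference was 3.33 (SE 0.29, limma adjusted p = 0.0054), or 10.1-fold with a 95% interval from 5.87 to 17.3. The interval had 8 tested probes, and only 1 other was called, A_30_P01028377 at 0.60. The probe beside it, A_30_P01026796, starting at 128731868, had levels of -2.56 and -2.42 against -1.92 and -2.69 and a difference of -0.19. The increase was measured on a single probe and not on its neighbour.

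Both chr9 probes belong to the 45393-nt interval chr9:81537835-81583227 on strand R. A_30_P01027016 had levels of 4.50 and 4.19 with CPEB3 IgG against 1.17 and 1.47, a difference of 3.03 (SE 0.21, limma adjusted p = 0.0053). A_30_P01026333 had levels of 1.05 and 0.37 against -2.45 and -2.11, a difference of 2.99. Another probe of the same strand, A_30_P01033032, starting at 81571137, went the other way. Its levels were -0.18 and -0.38 against 2.18 and 1.65, and its difference was -2.20 (SE 0.25, limma adjusted p = 0.0071). The fourth, A_30_P01029628, starting at 81571306, had a difference of 0.07. Probes of this interval strand were thus called in both directions. The noncoding gene D430036J16Rik has a probe 551 nt from the first of these probes on the opposite strand, with a difference of 0.78.

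A_30_P01018721, in the 430-nt interval chr3:95502970-95503399, had levels of 2.15 and 1.83 against -0.77 and -0.86, a difference of 2.81. The other tested probe of that strand had a difference of -0.77 and was not called. The remaining probes among the 8 largest increases were 2 in chr17:26911397-26917047 on strand R, 1 in chr12:103151385-103157735 on strand F and 1 in chr10:83185606-83225506 on strand F, described with their neighbours below. All 8 kept their direction and call in each alternative setting that covered them.

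**Figure D2:**
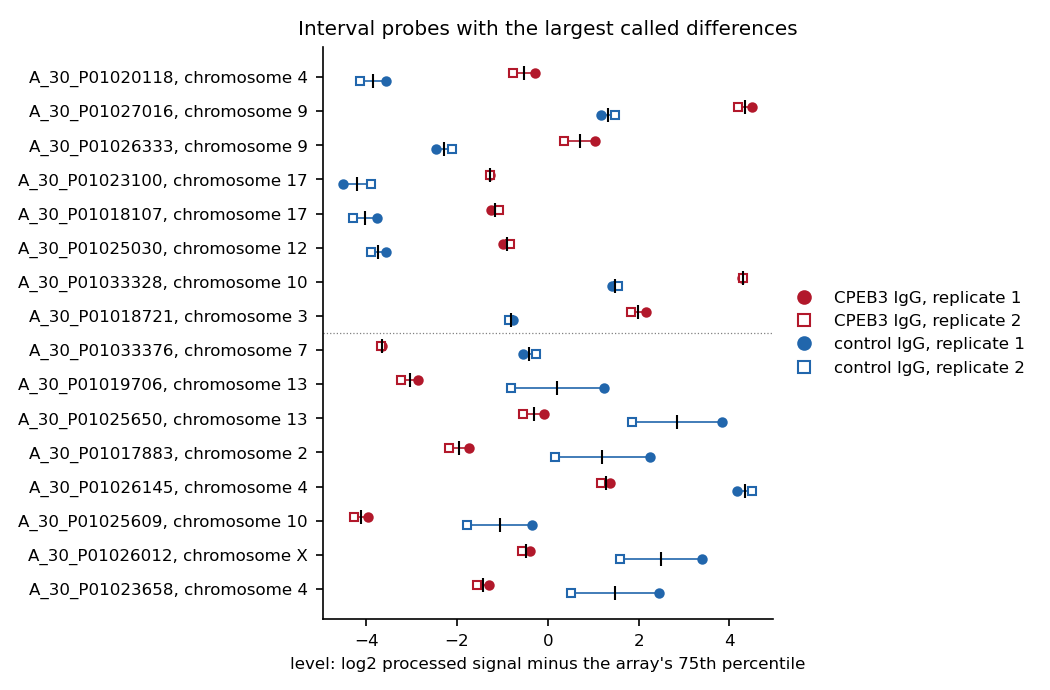
Levels (log2) of the 8 interval probes with the largest called increase (above the dotted line) and the 8 with the largest called decrease, with filled circles for replicate 1, open squares for replicate 2 and black ticks for the mean of the 2 arrays. The CPEB3 IgG arrays lie at most 0.68 apart in a row, while 6 of the 8 lower probes have control IgG arrays that lie at least 1.42 apart.

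The sequences of the 8 largest decreases follow. Capitals mark the repeats AGAGAG and GTGTGT and the letters GAAAGG. These motifs were picked after the values were seen and searched on the probe strand, and 3 of the 8 probes hold none of them. The probes are listed in order of their difference and lie at chr7:69083253-69083312 (F), chr13:112350877-112350936 (R), chr13:98066397-98066456 (F), chr2:75493801-75493860 (R), chr4:32294443-32294502 (F), chr10:84012188-84012247 (R), chrX:34363934-34363993 (R) and chr4:135139520-135139579 (F).
A_30_P01033376: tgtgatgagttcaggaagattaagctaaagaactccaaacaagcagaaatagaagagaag
A_30_P01019706: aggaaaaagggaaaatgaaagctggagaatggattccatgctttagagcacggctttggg
A_30_P01025650: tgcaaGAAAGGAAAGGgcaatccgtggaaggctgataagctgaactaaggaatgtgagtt
A_30_P01017883: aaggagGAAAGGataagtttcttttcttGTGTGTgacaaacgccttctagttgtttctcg
A_30_P01026145: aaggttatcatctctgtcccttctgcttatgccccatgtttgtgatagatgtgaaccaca
A_30_P01025609: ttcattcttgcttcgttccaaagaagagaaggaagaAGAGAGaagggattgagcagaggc
A_30_P01026012: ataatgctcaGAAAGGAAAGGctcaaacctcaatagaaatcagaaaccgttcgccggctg
A_30_P01023658: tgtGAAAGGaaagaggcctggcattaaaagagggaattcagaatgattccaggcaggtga

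A_30_P01033376, in the 106921-nt interval chr7:69024136-69131056, had levels of -3.66 and -3.67 with CPEB3 IgG against -0.55 and -0.27 with control IgG. Its difference was -3.25 (SE 0.18, limma adjusted p = 0.0053), a 9.54-fold decrease with a 95% interval from 6.82 to 13.4. It was the only 1 of 4 tested probes of that interval strand to be called, and their differences reached up to 0.34. A_30_P01026145, in chr4:32294119-32294941, had levels of 1.37 and 1.17 against 4.18 and 4.49, a difference of -3.06 (SE 0.20). Both groups were tight and well apart for this pair of probes, and both calls held in each alternative setting that covered them.

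The other 6 probes had a wide gap between the control arrays, with replicate 1 the higher in each. A_30_P01019706 had levels of 1.23 and -0.82 with control IgG and -2.86 and -3.23 with CPEB3 IgG, so its difference of -3.25 had an SE of 0.72. A_30_P01017883 had 2.25 and 0.16 with control IgG and -1.73 and -2.17 with CPEB3 IgG, a difference of -3.15 (SE 0.74, limma adjusted p = 0.036). Without control IgG replicate 1 the 6 differences became -1.92 to -2.34, from a single control array that is assumed to vary like the CPEB3 IgG arrays. These 6 lost their call when either CPEB3 IgG array was left out, with an adjusted p of up to 0.139, and 5 of them also lost it with no filter on dim probes.

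That gap was a wider pattern. Among the 9914 tested interval probes, 230 had control IgG replicate 1 more than 1.5 log2 above replicate 2, and 256 had the reverse. AGAGAG occurred in 34.3% of the 230, in 2.73% of the 256 and in 2.72% of all tested interval probes. GTGTGT occurred in 12.2%, 1.95% and 2.85% of the same sets, and GAAAGG in 11.7%, 1.56% and 2.11%. The reverse complement of the first, TCTCTC, occurred in 1.74% of the 230, 7.42% of the 256 and 3.55% of all. The 536 other probes on the array with the same gap toward control IgG replicate 1 held AGAGAG in 22.0% of cases and GTGTGT in 23.1%, against 2.44% and 2.87% of all other tested probes. With CPEB3 IgG, 52 interval probes had replicate 1 more than 1.5 above replicate 2, of which 13 held AGAGAG, and 282 had the reverse. Of the 230, 18 were called lower and 1 higher, where 15.2% and 5.81% of all 9914 tested interval probes were. The 230 were chosen for a wide gap between the control arrays, which raises the standard error and makes a call less likely.

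**Figure D3:**
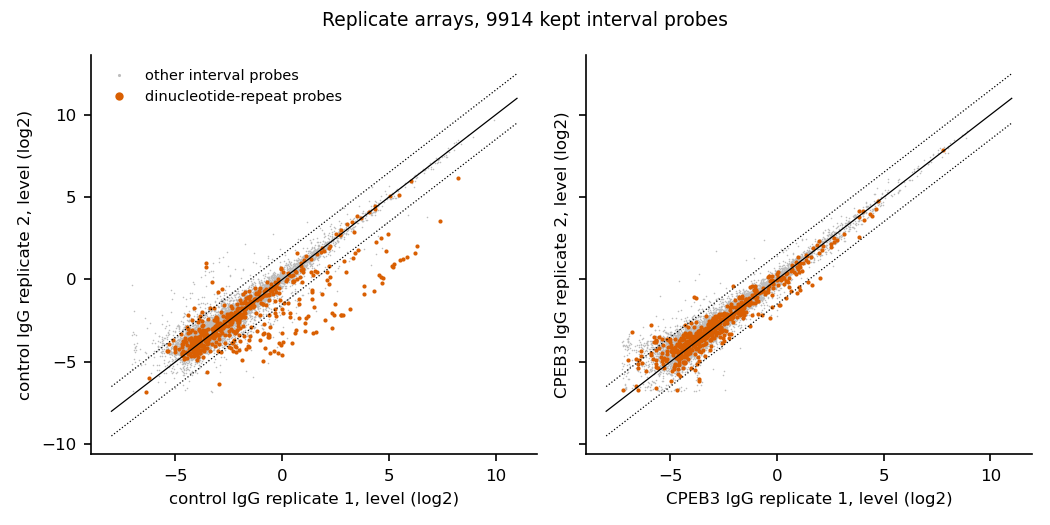
Level (log2) of each of the 9914 tested interval probes on replicate 1 against replicate 2, for control IgG (left) and CPEB3 IgG (right), with the 548 probes that hold AGAGAG or GTGTGT in orange, the line of equality and dotted lines at 1.5 above and below it. Repeat probes spread below the lower dotted line with control IgG, which means a brighter spot on replicate 1.

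The motifs differed in how often their probes were called lower, where the share over all tested interval probes was 15.2%. Of 209 tested interval probes with GAAAGG, 26.8% were called lower and 5.26% higher. Of the 132 interval probes that were called lower by 4-fold or more, 15.2% held it, against 2.11% of all tested interval probes. GAAAGG was picked after the values were seen, and the 132 include the named probes that hold it. Some of the 132 also passed the filter through control IgG only, so these shares are a description. For probes outside the intervals, 28.1% of the 648 with GAAAGG were called lower, against 20.1% of all such probes tested. Of the 895 of them that were lower by 4-fold or more, 5.03% held it, against 2.11% of all such probes tested. The 270 interval probes with AGAGAG had a median difference of -0.82, with 16.7% called lower, and the 283 with GTGTGT had -0.39, with 12.7% called lower. Leaving out the 548 interval probes with AGAGAG or GTGTGT gave 556 higher and 1425 lower of 9366. The part of these sequences in the differences was not tested.

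Some interval probes were seen with a single antibody, 84 with CPEB3 IgG only and 543 with control IgG only. They passed the filter through the group where they are high, so the direction of their calls was favoured by the filter, and the values below are a description. For such a probe a fold is a bound set by the dim side alone, and it takes no account of the spread between arrays. Its dim side is the mean over both dim arrays of the probe's own level or, where higher, the lowest level of any probe well above background on that array.

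The 4 named here for each antibody have the largest fitted differences, an order that the bounds do not follow. Above background with CPEB3 IgG only was A_30_P01028661 at chrX:91667702-91667761 on strand F, whose interval chrX:91662937-91668634 has no other probe. Its sequence, printed below in small letters, also holds the repeat GTGTGT. Its levels were -3.33 and -3.37 with CPEB3 IgG against -6.40 and -6.85 with control IgG, which is at least 3.31-fold higher (limma adjusted p = 0.0053). A_30_P01030524, at chr6:148164194-148164253, was at least 2.02-fold higher and lost its call with normexp background correction, where its adjusted p was 0.56. A_30_P01023134, at chr5:149966303-149966362, was at least 3.71-fold higher. Its control arrays lay at -5.00 and -6.57, and its call was lost with no filter on dim probes. A_30_P01033445, in chr6:28161665-28189840, was at least 5.01-fold higher, with a wide gap of -2.04 against -3.46 between the CPEB3 IgG arrays.
A_30_P01028661: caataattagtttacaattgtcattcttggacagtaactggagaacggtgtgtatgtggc

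Above background with control IgG only, A_30_P01023973 at chr11:69184472-69184531 on strand R had levels of -2.27 and -1.62 with control IgG and -6.95 and -6.06 with CPEB3 IgG, at least 10.4-fold lower (limma adjusted p = 0.0055). The 2 other tested probes of its interval strand, chr11:69184157-69201732, had differences of -0.52 and -0.31 and were not called. A_30_P01033482 in chr15:85476512-85498105 was at least 12.1-fold lower, A_30_P01029812 in chr8:28345511-28361105 at least 14.3-fold and A_30_P01031920 in chr1:4889810-4890012 at least 11.1-fold. The control arrays of those 3 lay 2.17 to 3.11 apart, and each lost its call with no filter on dim probes and when either CPEB3 IgG array was left out. The sequence of the first again holds GAAAGG, in capitals.
A_30_P01023973: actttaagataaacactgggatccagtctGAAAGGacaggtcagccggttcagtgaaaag

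The probes of an interval strand were next compared with each other. In 2729 interval strands with 2 or more tested probes, 53 had every tested probe called higher and 84 had every one called lower, while 1173 had at least 1 called. At least 2 probes were called in 421, and in 403 of these at least 2 pointed the same way. Calls in both directions occurred in 37. The range of differences within an interval strand had a median of 0.77. With 3 or more tested probes, 35 of 1651 interval strands had all of them higher and 39 had all of them lower. When the tested probes of an interval strand were averaged first, 186 of 3972 were called higher and 636 lower.

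The consistent increases were led by 4 interval strands. All 3 tested probes of chr10:83185606-83225506 on strand F lay between 2.56 and 2.81, and all 5 of the overlapping interval chr10:83181374-83249774 between 2.56 and 2.79. All 10 probes of chr17:26911397-26917047 on strand F lay between 2.23 and 2.77, and all 5 of chr6:54591416-54597566 on strand F between 1.64 and 2.48. The consistent decreases were led by chr13:58474388-58487288 on strand R, whose 4 probes lay between -2.80 and -2.41, chr7:26227170-26234328 on strand R with 3 probes between -2.48 and -1.53, and chr1:38886199-38892924 on strand R with 4 between -2.36 and -1.37.

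Probes on the same strand were then joined into neighbourhoods wherever no more than 10 kb separated them. Of 3399 neighbourhoods, 1558 held at least 3 tested probes. At least 3 probes were called higher in 69 of these and lower in 110, and 41 held calls in both directions. Joining at 1 kb gave 1388 with at least 3 probes, of which 69 had 3 higher and 86 had 3 lower, and joining at 100 kb gave 1452, with 69 and 141.

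The neighbourhood with the most calls in a direction was on chromosome 17, strand F, from 26911743 to 26913568. All 13 tested probes, from 2 intervals, were higher, with differences from 0.99 to 2.77 and a median of 2.53. The last of them, A_30_P01027115, had levels of 4.84 and 4.75 with CPEB3 IgG against 2.00 and 2.05 with control IgG. The lowest, A_30_P01022496, had -1.23 and -1.09 against -2.19 and -2.10. The arrays of each group lay within 0.30 of each other for all 13, and the groups did not overlap for any. The gene probe within 5 kb on this strand was that of Crebrf, which encodes a regulator of the CREB3 transcription factor, with a difference of 1.74.

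On chromosome 8, strand F, from 72665765 to 72672515, 11 of 12 tested probes were lower, with a median of -1.26 and a range from -1.72 to -0.84. Borcs8, a subunit of the complex that positions lysosomes, has a probe there with a difference of -1.65 on the same strand. On chromosome 1, strand F, from 163527417 to 163528980, 9 of 12 were lower, with a median of -1.18. No tested probe of a gene with an NM or NR accession lay within 5 kb of it. On chromosome 10, strand F, from 83224650 to 83225493, all 8 were higher, between 2.56 and 2.81, next to a probe of 1500009L16Rik at 2.55. A neighbourhood on chromosome 8, strand R, from 119092655 to 119093777, tied with it at 8 of 8 higher, between 0.64 and 2.04, and Cdyl2, a chromodomain gene, has a probe there at 0.87.

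**Figure D4:**
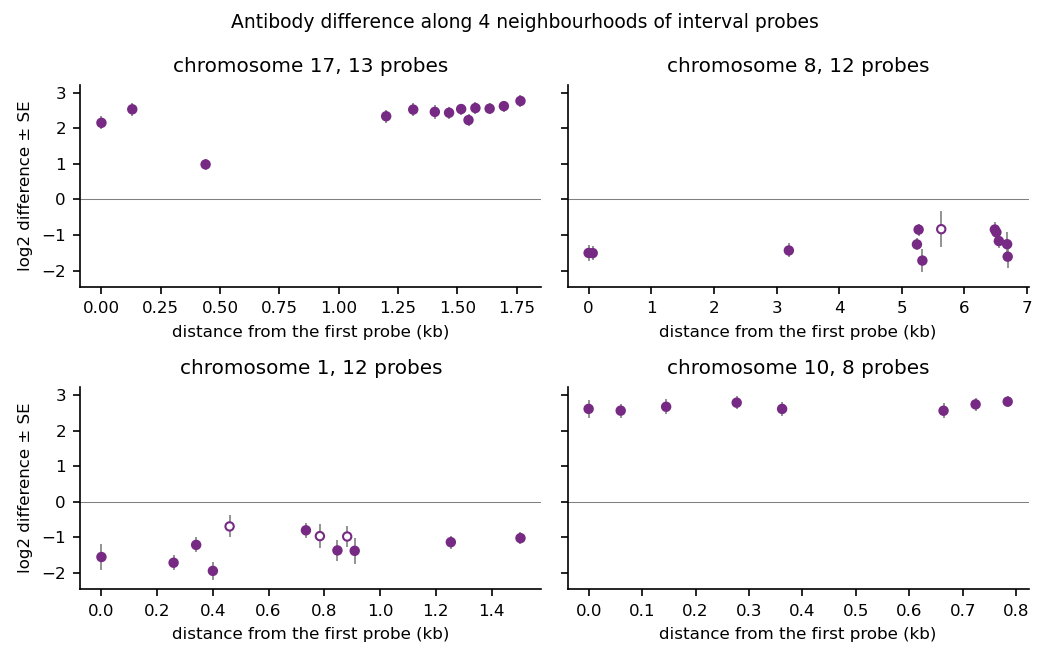
Log2 difference with its standard error for each tested probe along 4 neighbourhoods, against the distance in kb from the first probe, with filled points for called probes and open points for the others. All 13 probes on chromosome 17 and all 8 on chromosome 10 lie above 0, and all 12 on chromosome 8 and all 12 on chromosome 1 lie below it.

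Interval probes close to a probe of a named gene tended to move with that probe. The nearest tested probe with an NM or NR accession was taken, on each strand apart, and the pairs share arrays, so correlations are given as a description over probes. Within 1 kb on the same strand, the differences of 375 interval probes and of their gene probes, from 124 genes, correlated at r = 0.71 (Spearman's rho 0.70). Of these interval probes, 81 overlapped their gene probe, so both read some of the same bases, and over those 81 r was 0.89. From 1 to 5 kb r was 0.25 over 630 probes, and from 5 to 50 kb it was 0.03 over 3586. On the opposite strand r was 0.40 over 274 probes within 1 kb, 0.15 over 625 from 1 to 5 kb and 0.04 over 3321 beyond. Within 5 kb on the same strand, the main setting, r was 0.43 over 1005.

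Where both probes were called within 1 kb on the same strand, 100 of 102 pairs went the same way. From 1 to 5 kb this was 69 of 90, and from 5 to 50 kb 158 of 323. Beside a gene probe that was higher, 80 of 120 interval probes within 1 kb were higher and 1 was lower, with a median difference of 1.03. Beside a gene probe that was lower, 20 of 56 were lower and 1 was higher, with a median of -0.62. Of all 375, 24.3% were higher and 8.80% lower. The 8052 interval probes with no tested gene probe within 5 kb on either strand were called higher in 4.27% and lower in 15.8% of cases, with a median of -0.31, so most calls among them were decreases under this scaling.

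**Figure D5:**
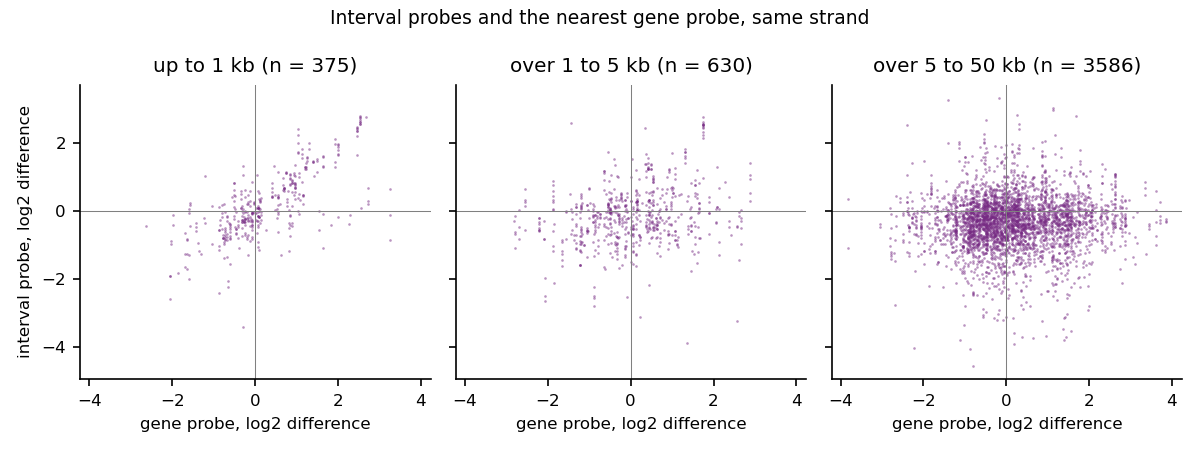
Log2 difference (CPEB3 IgG minus control IgG) of interval probes against that of the nearest tested gene probe on the same strand, at up to 1 kb (375 pairs), over 1 to 5 kb (630) and over 5 to 50 kb (3586). The points follow the diagonal in the first panel and form a round cloud in the last.

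Several interval probes can be placed beside a gene in this way. A_30_P01018579, in chr5:143200557-143204033 on strand R, overlaps a probe of Tnrc18 and had a difference of 2.76, where that Tnrc18 probe had 2.67 and another had 3.33. A_30_P01017889, 200 nt from a probe of the lipid-transfer gene Plekha8, had 2.48 against 2.47, while another Plekha8 probe on the same strand had -0.23. A_30_P01024549 overlaps a probe of the Golgi mannosidase gene Man1a2 and had 1.98 against 2.00, with 1.02 on another Man1a2 probe. Among decreases, A_30_P01024054, 91 nt from a probe of the sorting nexin gene Snx6, had -1.83 against -1.86, with -1.03 on another Snx6 probe, and A_30_P01029750, 436 nt from a probe of Isoc2a, had -2.59 against -2.06. A_30_P01019328, 598 nt from a probe of the annexin gene Anxa5, had -2.01 against -1.59. Other large pairs matched less closely. A_30_P01031031, 781 nt from a probe of 2210016F16Rik, had -2.41 against -0.88, and A_30_P01031173, 962 nt from a probe of 2900092D14Rik, had 1.84 against 1.14. All of these were taken from the largest pairs within 1 kb after their values were seen.

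Only 2 pairs within 1 kb on the same strand were called in opposite directions. A_30_P01026422, in chr1:162965309-162970704 on strand F, had a difference of 1.04 and lies 247 nt from a probe of Gas5 with -1.21. Gas5 is a host gene whose introns carry small nucleolar RNAs, and its 3 probes ranged from -1.21 to 1.41. A_30_P01026785, in chr17:35080914-35090009 on strand R, had -1.31 and lies 962 nt from a probe of 1110038B12Rik with 0.63.

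Both strands were tested in 892 intervals, with 1 probe per strand. The differences on strands F and R correlated weakly across intervals (r = 0.10). At least 1 strand was called in 319 intervals and both in 49, of which 17 had both higher, 24 had both lower and 8 had opposite calls. The difference between the strands itself was tested with limma on the log ratio of strand F to strand R. It was called in none, or 0% of 892, at an adjusted p under 0.05, where the smallest adjusted p was 0.072, and 215 had an unadjusted p under 0.05. The count of calls was 31 with normexp background correction, 20 of 779 with a filter on all 4 arrays, 27 without control IgG replicate 1 and 130 without control IgG replicate 2.

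The intervals whose strands were called in opposite directions are named as a description. In chr9:118291593-118324230, the F probe had levels of 2.17 and 2.02 against -0.04 and -0.11 and a difference of 2.17, and the R probe had -1.74 and -1.92 against -1.19 and -0.79 and a difference of -0.84. These probes lie 8145 nt apart. In chr17:3198868-3394643 the differences were 1.62 on strand F and -1.02 on strand R, from probes 43275 nt apart, and in chr5:31856417-31916414 they were 0.87 and -1.29, from probes 32600 nt apart. In chr11:69106907-69112857 they were 2.01 and -1.13, at 1265 nt. In chr3:19179899-19216399 they were 2.57 and -2.81, from probes that are offset by 15 nt and share 45 bases. The R probe there had control arrays at 4.51 and 2.66. In all 8 intervals of this kind the F probe was the higher, with the 1 probe chosen per strand.

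Some opposite-strand probes cover the same bases. In 699 pairs of tested F and R probes that overlapped by 30 or more bases, r was 0.16 and Spearman's rho 0.07, and 38 pairs had both probes called, 17 with both higher, 17 with both lower and 4 with opposite calls. The last include the pair in chr3:19179899-19216399 named above. Another of them ran against the 8 intervals above: in chr10:66559716-66647841 the F probe was lower, at -2.90, and the R probe overlapping it was higher, at 1.32. The interval chr17:26911397-26917047 held 7 of the pairs with both higher. Its R strand had 7 tested probes, of which 6 were higher, the highest at 2.93 and 2.85 (A_30_P01023100 and A_30_P01018107). A_30_P01023100 had levels of -1.27 and -1.28 with CPEB3 IgG against -4.51 and -3.90 with control IgG, and the F probe that shares 47 bases with it, A_30_P01021398, had 2.56 and 2.51 against -0.11 and 0.13. The same held for chr12:103151385-103157735, where the F probe A_30_P01025030 had -0.98 and -0.83 against -3.56 and -3.90, a difference of 2.83. Its partner on strand R, A_30_P01023424, had a difference of 2.41 and lies 673 nt from a probe of Atxn3, a deubiquitinase gene, with 1.04. Whether these signals come from RNA of both strands was not tested.

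Some intervals lie in noncoding RNAs that have names. The 4 interval probes with the brightest spots comprised 2 in chr19:5801802-5802597 on strand R, 1 in chr14:78924115-78938125 on strand F and 1 in chr2:156213798-156216885 on strand R. Those on chromosomes 19 and 2 are printed for their place in Malat1 and beside Norad, with TTTTA in capitals where it occurs, which it does in neither. They lie at chr19:5802130-5802189 and chr2:156214183-156214242.
A_30_P01031754: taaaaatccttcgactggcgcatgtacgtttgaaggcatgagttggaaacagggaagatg
A_30_P01022011: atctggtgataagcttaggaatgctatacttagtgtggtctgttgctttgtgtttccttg

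The Malat1 design on the array, named NEAT2 there, spans chr19:5795689-5802671 on strand R, and 7 interval probes lie in it. All 7 were lower, between -1.27 and -0.94, and the 3 probes of the named design lay between -1.36 and -1.11. A_30_P01031754 had levels of 8.86 and 8.58 with CPEB3 IgG against 9.92 and 9.66 with control IgG, a difference of -1.07 (SE 0.20, limma adjusted p = 0.021). Its call was lost with median, spike-in or no scaling and without control IgG replicate 1 or either CPEB3 IgG array. The interval beside Norad, a noncoding RNA known to bind Pumilio proteins, had 3 probes, all higher. A_30_P01022011 had levels of 8.67 and 8.79 against 7.20 and 7.36, a difference of 1.45 (SE 0.17, limma adjusted p = 0.0077), and lies 171 nt from a Norad probe with 1.40. It kept its call in each alternative setting that covered it. A_30_P01031448, in the chr14 interval, had 7.82 and 8.03 against 8.72 and 8.77, a difference of -0.82, and was the only 1 of 4 tested probes of that strand to be called. It lost its call in 9 of 15 alternative settings, among them median scaling and each setting that left out an array, with an adjusted p of up to 0.886.

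Tug1, a noncoding RNA expressed in neurons, has its own design on the array. Of 6 interval probes inside chr11:3539796-3547536 on strand R, 5 were higher, up to 1.41, and the 5 probes of the Tug1 design were all higher, between 0.98 and 1.77. Of 4 tested interval probes in the BRN1-A design, chr1:42705044-42751670 on strand R, 2 were lower, the lowest at -0.85. Of 2 in lincP21, none was called.

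A list of 42 named long noncoding RNAs places these values. Of the 29 tested, each by its brightest probe, 7 were higher, 4 were lower and 18 were not called, with a median difference of -0.28, where 15.8% and 18.9% of all tested probes were higher and lower. Snhg6, a host of small nucleolar RNAs, had levels of 6.82 and 6.86 against 4.56 and 4.46 and the largest increase at 2.32. Gas5 followed with 1.41 on its brightest probe, then Norad with 1.40. Rmrp, the RNA of the RNase MRP complex, had the largest decrease at -1.49. Meg3, an imprinted noncoding RNA of neurons, had -1.44 with control arrays at 5.57 and 4.55 and did not pass (limma adjusted p = 0.054).

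Base composition went with the difference. Interval probes detected on all arrays with up to 30% GC had a median difference of 0.34 over 68 probes, of which 32.4% were higher and 5.88% lower. The median was -0.03 over 752 probes from 30 to 35% GC, -0.22 over 3469 from 40 to 45%, -0.28 over 1499 from 50 to 55% and -0.41 over 303 above 60%. In the last bin 2.31% were higher and 17.8% lower. The other probes of the array ran from 0.78 at up to 30% GC to -0.48 above 60%. A motif of A and T letters is more frequent in probes of low GC, and its part in the difference apart from base composition was not tested.

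The letters TTTTA on the probe strand occurred in 8.83% of the 7959 interval probes detected on all arrays, in 16.7% of the 516 higher, 8.13% of the 1070 lower and 8.32% of those not called. In all other probes detected on all arrays it occurred in 11.8%, and in 21.7% of the higher and 6.50% of the lower. The longer TTTTAT occurred in 2.69% of the interval probes, 5.23% of the higher and 2.62% of the lower, and TTTTAAT in 0.73%, 1.36% and 0.56%. On both strands, TTTTA occurred in 17.2% of interval probes, 27.5% of the higher and 15.7% of the lower. Interval probes with TTTTA were called higher in 12.2% and lower in 12.4% of cases, where other probes with it were called higher in 37.5% and lower in 11.2%. A probe covers only 60 bases, so letters elsewhere in a transcript were not examined.

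Position and length were described for the interval probes detected on all arrays, with no test. Median differences were -0.26 for 1642 probes within 200 nt of the interval's 3′ end, -0.19 for 1291 from 200 to 1000 nt and -0.30 for 608 beyond 30000 nt. By interval length, medians ran from -0.18 for intervals of 5000 to 10000 nt to -0.28 for those of 500 to 1000 nt. By chromosome, over all 9914 tested interval probes, the share called higher ran from 2.82% of 426 probes on chromosome 15 to 9.14% of 514 on chromosome 12, and the share called lower was highest on chromosome 16, at 20.6% of 354.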

How the data were processed

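RNA precipitated with CPEB3 IgG (2 samples) or control IgG (2 samples) was read on 4 Agilent arrays of 1 colour, grouped by the sample titles. The deposited spot intensities were made with Agilent Feature Extraction (version 10.5.1.1 in the file headers), whose processed intensity is background-subtracted within each array and not scaled between arrays. The mean and local background intensities served only the normexp alternative. How the authors tested the arrays is not known here.

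Of 62976 spots, 3671 control spots and the 123 to 223 spots per array flagged as outliers were left out, no spot was saturated, and spots of a probe were averaged. The 4 arrays limit the precision. Log2 processed signal minus log2 of the array's 75th percentile was fitted with limma 3.58.1 in R 4.3.3 (lmFit, eBayes) over the 40616 kept probes, with a 95% interval from the moderated degrees of freedom. Positions are on mm9 per the file headers, and sequences come from the deposited files. Exons were not analysed here. Gene symbols were updated through RefSeq accessions of GRCm38.

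The members, lists, tests and named rules were chosen with earlier results of these data known. Named were the 8 largest called increases and decreases above background on all 4 arrays without overlap of the groups, up to 4 called each way with 1 group below background, 5 strand pairs, 4 neighbourhoods, the 4 brightest probes, gene neighbours within 5 kb and 5 noncoding RNAs, and items on chromosome 18 were not reported. Other probes of their intervals, the pairs beside genes, the remaining motifs and the overlapping opposite probes were chosen after values were seen. Where no strand pair was called, the pairs with opposite calls were described.

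On simulated arrays with 14111 of 40616 probes changed by 2.40-fold, 11185 were recovered with 362 false calls. With 200 changed, 0 of 50 were recovered at 8-fold. Over 892 strand pairs, 28 of 50 were recovered at 4-fold and 41 of 50 at 8-fold.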

Additional observations from a re-analysis of the deposited data

How the results depend on the processing

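The counts of 576 higher and 1506 lower interval probes moved with the processing. Higher calls numbered 884 with median scaling and 336 without scaling. Lower calls numbered 933 with normexp background correction, 854 with quantile normalization, 760 with median scaling, 895 with cyclic loess, 221 with spike-in scaling and 827 with no filter on dim probes. The brightest probe per name gave 243 higher and 673 lower, and the mean of an interval strand, chosen after seeing the data, gave 186 and 636. At an adjusted p under 0.01 there were 186 and 189, and 956 lower calls were also 2-fold or more. Leaving out 1 array gave 170 to 467 higher and 249 to 1080 lower, with the lone array left in a group assumed to vary like the other group.

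The replicate block gave 663 higher and 1948 lower and called 0 strand pairs. The deviations of same-numbered arrays correlated at 0.33 over interval probes, but with 2 pairs the samples share only a number. Called strand pairs numbered 31 with normexp, 20 with detection on all arrays and 0 to 130 with 1 array left out. Across neighbours on the same strand, r was 0.71 within 1 kb and 0.13 within 50 kb, against 0.43 within 5 kb. Of the 28 probes named for the largest differences, for detection with 1 antibody only or for brightness, none changed direction in an alternative that covered it. With 2 arrays per group, outlying arrays were not tested, and 6280 interval probes were too faint or incomplete to test.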
